A study of Mus musculus with 20 samples.

Results

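The genes studied here encode RNA-binding proteins that carry, stabilise or repress mRNA in neurons, and they were followed through axons and cell bodies of cultured mouse motoneurons, with and without depletion of Tdp-43. The set was fixed by gene symbol and holds Elavl1, Elavl2, Elavl3, Elavl4, Fmr1, Fxr1, Fxr2, Stau1, Stau2 and Smn1, which are 10 of the 39174 genes in the deposited files. Each symbol matched 1 row, and all 10 genes passed the filter on low values in every comparison. Primary motoneurons from spinal cords of mid-gestation CD-1 mouse embryos had been enriched by panning on an antibody to the receptor p75 and grown for a week in microfluidic chambers, in which axons extend through channels into a compartment of their own. By the methods, control cultures received an empty lentiviral expression vector, while the titles of their libraries begin with GFP. Knockdown cultures received the same kind of vector with a short hairpin RNA against Tdp-43, and all cultures therefore carried a lentivirus. RNA from each compartment was amplified by PCR over the whole transcriptome and sequenced. There were 4 axonal and 4 somatodendritic control libraries and 6 axonal and 6 somatodendritic knockdown libraries, 20 in all. The sources used here do not say that replicates were separate cultures or animals, so that p-values measure only the spread between these libraries, and the control libraries were already part of an earlier publication.

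The Elavl proteins (Hu proteins) bind AU-rich and U-rich stretches, mostly in 3′ ends of mRNAs, and raise the stability of growth-associated transcripts such as Gap43. Elavl1 is present in most cell types, while Elavl2, Elavl3 and Elavl4 are neuronal. The fragile X family, Fmr1 with its paralogs Fxr1 and Fxr2, represses translation of bound mRNAs until a local signal arrives. The Staufen proteins, Stau1 and Stau2, bind double-stranded RNA and travel in transport granules along microtubules, Stau2 mainly in neurons. Smn1 encodes the survival motor neuron protein, which assembles small nuclear ribonucleoproteins and is lost in spinal muscular atrophy. Tdp-43, encoded by Tardbp, is a nuclear RNA-binding protein with a preference for UG repeats that forms aggregates in amyotrophic lateral sclerosis.

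The sequence against which the knockdown was directed is shown first, since every knockdown comparison rests on it. The target strand of the hairpin, taken from the oligonucleotides listed for the study, is given 5′ to 3′ in DNA letters on the line that follows.
Tardbp target site: gcataatagcaatagacagtt
These 21 bases lie on chr4:148618697-148618717 of GRCm38, minus strand, within the coding sequence of the protein-coding Tardbp transcripts that hold it. In GENCODE M21 transcripts the full site occurred in 1 gene, Tardbp, and in 0 of the 10 genes studied here. For UG repeats, the longest run of TG units was searched in the protein-coding GENCODE M21 transcripts of each gene, on the sense strand. The 3 genes with the longest runs are shown because no other member has a run as long, with the run in capitals and flanking bases in lower case.
Elavl4: tccttctgtTGTGTGTGTGtatgtgtac
Fmr1: gaccctgaaaTGTGTGTGatgtgacatt
Stau1: ctcaatgcacTGTGTGTGaaactggaaa
The Elavl4 run has 5 units (chr4:110204870-110204879, minus strand, 3′ UTR). Among 4545 protein-coding genes whose longest transcript is within 20% of that of Elavl4, 14.7% have at least as many units. The Fmr1 run has 4 units (chrX:68716162-68716169, plus strand, 3′ UTR), which 34.1% of genes of similar length reach. The Stau1 run also has 4 units (chr2:166964677-166964684, minus strand, 5′ UTR), which 28.8% of such genes reach. The other members have 2 or 3 units, which 86.6% or more of genes of similar length reach. A run of TG units is a description of the annotated transcript and not a binding site.

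Levels are in FPKM, a fragment count per exon length and library total that the authors computed, and can be compared between genes because they are per length. They carry no read totals. The precision of each value was therefore read from its deposited interval as (FPKM / SD) squared, and a depth relative to the deepest library was estimated from how this precision differed between libraries over 680 genes. It ranged from 0.612 to 1 in somatodendritic control, 0.53 to 0.674 in axonal control, 0.143 to 0.698 in somatodendritic knockdown and 0.103 to 0.76 in axonal knockdown libraries. There were 5 libraries under 0.5, namely axonal knockdown replicates 2, 4 and 5 and somatodendritic knockdown replicates 5 and 6. Axonal libraries also fell apart in the share of summed FPKM on the 37 mitochondrially encoded genes. It was 33% in axonal control replicate 4 and 38.5% to 47.7% in axonal knockdown replicates 2, 4, 5 and 6, against 8.88% to 13.1% in the other axonal libraries and 10.5% to 15% in the somatodendritic ones. Tardbp itself was at 27.3 ± 5.55 FPKM in somatodendritic control (SD, n = 4) and 4.01 ± 3.44 in somatodendritic knockdown libraries (SD, n = 6). In axons it was at 24.6 ± 9.39 FPKM in control and 13 ± 11.1 in knockdown libraries, and axonal knockdown replicate 1, at 33.2 FPKM, was above all axonal controls. Of 7 motoneuron markers, 6 had a row, and their summed level was 2.13 to 7.89 FPKM in somatodendritic control libraries, with Mnx1 and Chat listed at 0 in every library. It reached 24.8 FPKM in somatodendritic knockdown, 18.2 FPKM in axonal control and 4.25 FPKM in axonal knockdown libraries, and Ngfr, which encodes the p75 used for panning, reached 16.7 FPKM. In somatodendritic control libraries, markers of inhibitory interneurons (Gad1, Gad2, Slc32a1, Pax2) summed to 111 to 130 FPKM and those of astrocytes and progenitors to 414 to 591 FPKM. Markers of oligodendrocytes and Schwann cells, of microglia and of sensory neurons summed to at most 57.7, 27.5 and 21.2 FPKM in any library. Of the defining markers of the labelled cell type, Mnx1 and Chat were thus not seen, and the levels given here are those of the whole culture.

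The precision of the 10 genes differed widely. At a precision of 1 the SD of the interval is as large as the value. Elavl3 had a precision of 126 to 209 in somatodendritic and of 26.9 to 50.3 in axonal control libraries. In axonal controls the precision was 18.9 to 30 for Elavl1, 13.2 to 33.3 for Fxr1 and 6.7 to 26.5 for Stau2. Elavl4 had a precision of 1.69 to 7.83 there, against 23.8 to 57.1 in somatodendritic controls. It was 0.284 to 5.26 for Stau1, 0.294 to 5.84 for Fxr2, 0.0421 to 4.24 for Smn1 and 0.00713 to 0.986 for Fmr1, so that the SD was larger than the value in all 4 axonal controls of Fmr1, 3 of Fxr2, 2 of Smn1 and 1 of Stau1. The precision is no number of reads, since it does not follow level and length. In somatodendritic controls its median was 177 for Elavl3 (62.3 FPKM, 6890 exonic bases) and 41.8 for Elavl4 (142 FPKM, 5387 exonic bases). The deposited intervals therefore hold more than counting error.

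**Figure D1:**
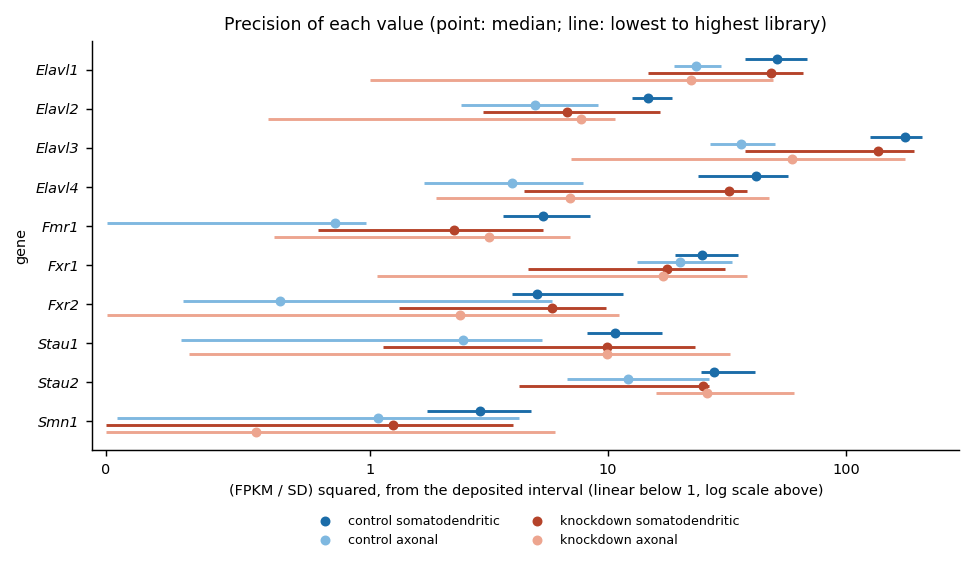
Precision of each FPKM value, (FPKM / SD) squared from its deposited interval, on an axis that is linear below 1 and logarithmic above, for the 10 genes in the 4 groups of libraries; the point is the median library and the line runs from the lowest to the highest. Elavl3 has the highest median in every group, and Fmr1, Fxr2 and Smn1 have medians of 0.569 to 3.15 in axons.

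In control cell bodies the neuronal Elavl gene Elavl4 and the neuronal Staufen gene Stau2 had the highest mean levels of the set. Elavl4 was at 142 ± 19.2 FPKM and Stau2 at 104 ± 12.6 FPKM (SD, n = 4 each), and their ranges, 115 to 157 and 84.7 to 111 FPKM, did not overlap. Elavl2 (66.4 ± 15.3 FPKM) and Elavl3 (62.3 ± 6.83 FPKM) followed and could not be told apart. Stau1 (36.4 ± 2.19), Fxr2 (31.3 ± 7.02), Smn1 (26.8 ± 4) and Fxr1 (23.8 ± 3.49 FPKM) formed a row in which each range overlapped the next, and Elavl1 (15.8 ± 3.18) and Fmr1 (14.4 ± 2.49 FPKM) had the lowest means. In control axons the order was another one. Stau2 had the highest mean at 88 ± 55.8 FPKM, followed by Elavl2 at 42 ± 13.5 FPKM, by Fxr1 at 26.3 ± 9.62 FPKM and by Elavl4 at 25.5 ± 11.6 FPKM. Each gene's range overlapped that of the next in this order down to Elavl1 (9.28 ± 1.38 FPKM), which lay above Fmr1 (5.38 ± 3.16 FPKM) in every library.

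**Figure D2:**
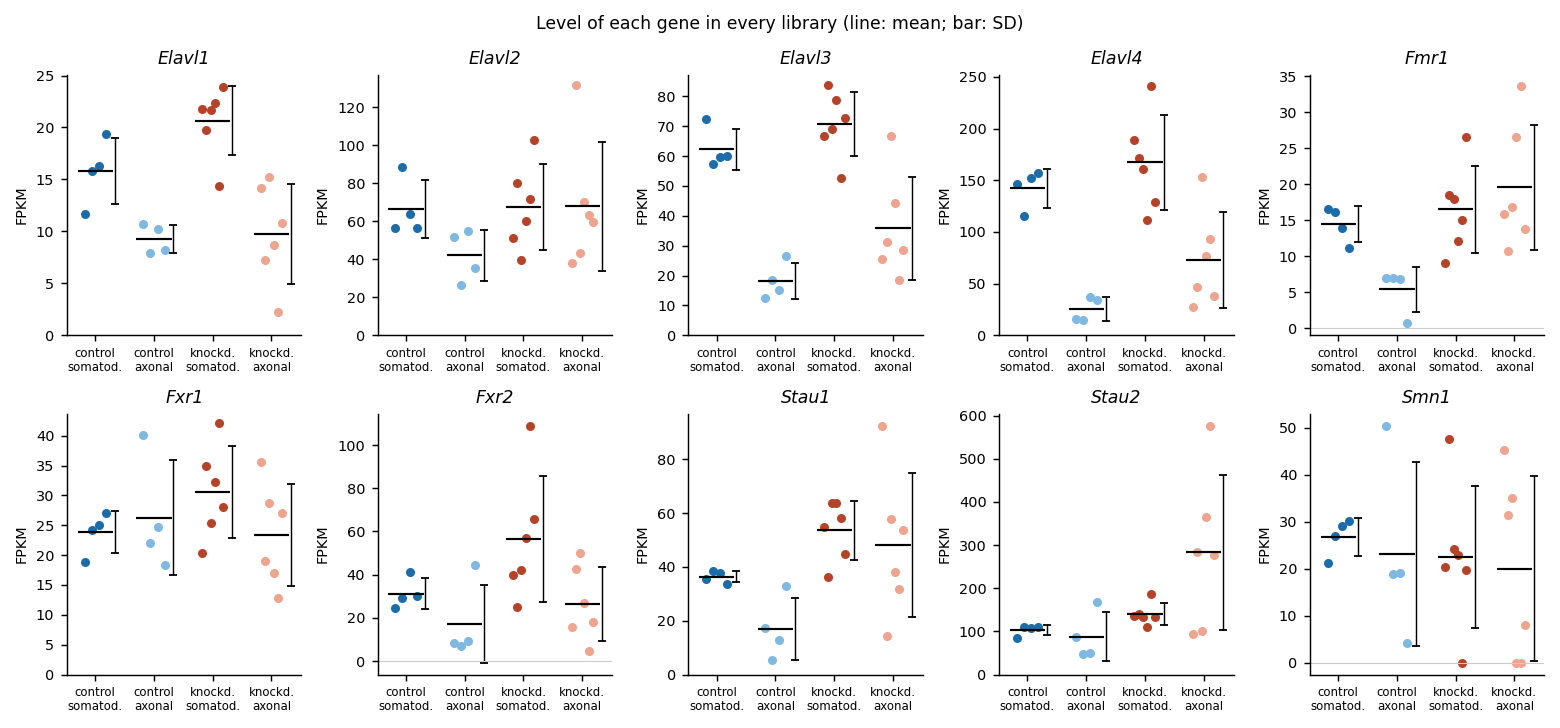
FPKM of each of the 10 genes in all 20 libraries, by condition and compartment, with the group mean as a line and the SD as a bar (n = 4 control and n = 6 knockdown libraries per compartment). In these unscaled values Elavl1, Elavl2, Elavl3, Elavl4, Fmr1 and Stau1 are lower in every control axonal library than in every control somatodendritic one. The share of all genes for which this holds before scaling was not computed, and their median log2 change is then -0.48. Stau2 reaches 577 FPKM in a knockdown axonal library.

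The first comparison set the axonal against the somatodendritic compartment of control cultures, called axons and cell bodies here, and the members that passed were 2 of the 3 neuronal Elavl genes. Elavl4, which stabilises growth-associated mRNAs, and Elavl3, its close paralog, were lower in axons than in cell bodies. Across somatodendritic controls 1 to 4, Elavl4 had 146, 115, 152 and 157 FPKM. The 4 axonal controls, in the same order, had 16.2, 14.9, 36.9 and 34 FPKM. The groups lay far apart, with a mean axonal level of 17.9% of the somatodendritic one and a log2 change of -2.02 (SE 0.32, limma adjusted p = 0.00518). Elavl3 was at 72.4, 57.3, 59.6 and 59.9 FPKM in the somatodendritic and at 12.4, 18.6, 15.1 and 26.5 FPKM in the axonal control libraries. Here too the groups did not overlap, the axonal mean was 29.1% of the somatodendritic one and the log2 change was -1.26 (SE 0.26, adjusted p = 0.0179). These were 2 of 10 members with an adjusted p under 0.05, against 6.9% of the 13760 genes tested (2.97% lower and 3.93% higher). Both fell at that threshold in all settings with all 8 libraries other than the replicate block, in which Elavl3 had an adjusted p of 0.0602. Without control replicate 1 neither passed (Elavl4 -1.83, adjusted p = 0.0639, and Elavl3 -1.03, adjusted p = 0.122), and Elavl3 did not pass without control replicate 2 (adjusted p = 0.0976) or 3 (adjusted p = 0.0904). With the mitochondrial share as a covariate, an alternative chosen after seeing the data, the changes were -2.17 for Elavl4 (adjusted p = 0.00254) and -1.40 for Elavl3 (adjusted p = 0.00502).

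In libraries made from whole compartments, fewer cells of a type and less RNA per cell cannot be told apart. The 4 interneuron markers moved in the same direction as Elavl3 and Elavl4, with 4 of 4 lower in control axons at an adjusted p under 0.05 and a summed level of 22.4 to 41.9 FPKM in axonal against 111 to 130 FPKM in somatodendritic control libraries. The astrocyte and progenitor markers were mixed, with 2 of 8 higher at that threshold and sums of 599 to 896 against 414 to 591 FPKM. Vim (448 against 150 FPKM), Nes (74.7 against 9.87) and Sox2 (17.4 against 15.2) had higher means in axons. Gfap (1.8 against 9.36 FPKM), Slc1a3 (69.7 against 87.4) and Fabp7 (93.8 against 173) had lower ones. So had Aldh1l1 (7.37 against 16.4 FPKM) and Aqp4 (0.815 against 4.39). Fibroblast markers summed to 11.9 to 47.9 FPKM in axonal and 1.43 to 11.9 FPKM in somatodendritic controls, and 1 of 2 tested passed, Col1a1, which was higher in axons (26.4 against 2.66 FPKM). Sums were lower in axons and did not overlap for microglia (at most 3.89 against 4.34 to 25.2 FPKM) and sensory neurons (1.01 to 5.21 against 9.69 to 21.2 FPKM), with 0 of 3 and 0 of 1 tested markers passing. The part of these cell types in the lower Elavl levels was not tested.

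The other 2 Elavl genes did not pass the test. Elavl2 (HuB), also neuronal, was at 56.3, 88.8, 64.1 and 56.5 FPKM in somatodendritic and 51.6, 26.4, 54.8 and 35.2 FPKM in axonal controls. The deposited values did not overlap, but the log2 change after scaling was -0.16 (SE 0.29, 95% interval -0.81 to 0.48, adjusted p = 0.783). Elavl1 was at 11.7 to 19.4 FPKM in somatodendritic and 7.95 to 10.7 FPKM in axonal controls (log2 change -0.21, SE 0.28, adjusted p = 0.703). The scaling counts here, since with FPKM as deposited the median change of all tested genes was -0.48, against -0.06 after scaling. Over the set, the groups of scaled values did not overlap for 4 members (Elavl3, Elavl4 and Fmr1 lower and Fxr1 higher), against 16.2% of all genes tested, and the members had a median log2 change of -0.46.

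The make-up of the Elavl family within a library does not depend on scaling. Elavl4 made up 49.5% ± 5.5 (SD, n = 4) of the summed Elavl FPKM in somatodendritic controls, with a range of 41.4% to 53.6%. In axonal controls its share was 26% ± 7.27, with a range of 17.8% to 32.7%. Elavl2 went the other way, from 23.3% ± 6.03 (19.3% to 32.1%) to 44.1% ± 10 (33.8% to 56.8%), so that Elavl2 and not Elavl4 had the largest mean share in control axons. Neither pair of ranges overlapped. The share of Elavl1 was 5.5% ± 1.06 against 10% ± 2, also without overlap (4.08% to 6.63% and 7.93% to 11.8%), and that of Elavl3 was 21.7% ± 2.38 against 19.9% ± 7.66. In knockdown libraries the Elavl4 share was 50.8% ± 9.59 in cell bodies and 36.9% ± 14.2 in axons (n = 6), with overlapping ranges, and the Elavl2 share was 20.7% ± 6.3 and 37.9% ± 14.6. These shares are given as a description.

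**Figure D3:**
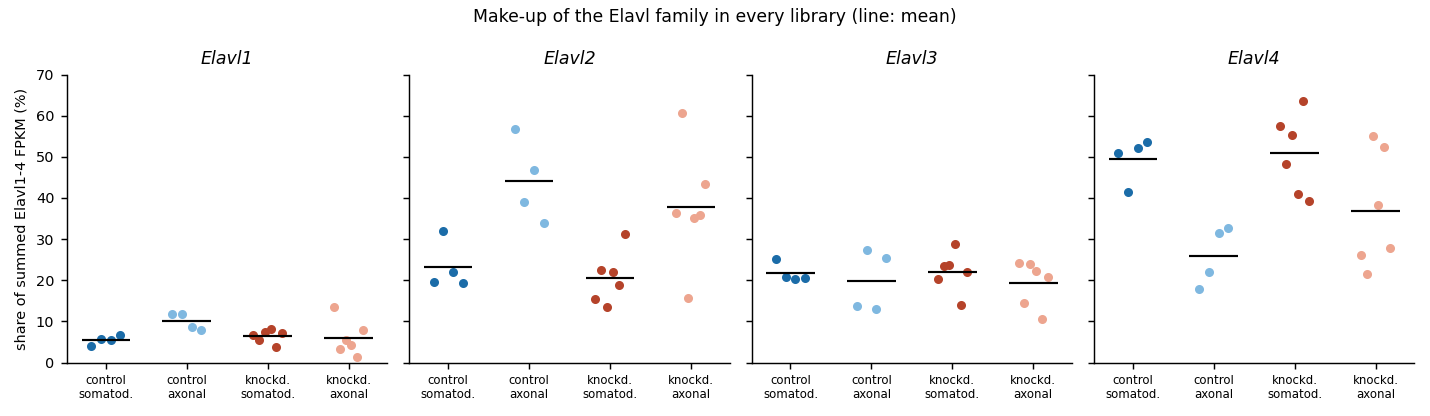
Share of each Elavl gene in the summed FPKM of Elavl1 to Elavl4, in percent, for each library by condition and compartment; lines are group means. In control libraries the Elavl4 share is 41.4% to 53.6% in cell bodies and 17.8% to 32.7% in axons, while the Elavl2 share is 19.3% to 32.1% and 33.8% to 56.8%.

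None of the fragile X family members passed the adjusted threshold between the control compartments. Fmr1 was at 16.6, 16.1, 13.9 and 11.1 FPKM in somatodendritic and at 6.98, 7.02, 6.88 and 0.644 FPKM in axonal controls. All 4 axonal values were below the lowest somatodendritic one, yet the log2 change of -1.06 (SE 0.54) had an adjusted p of 0.269. Fxr1 had nearly the same level in both compartments, 26.3 ± 9.62 FPKM in axons and 23.8 ± 3.49 FPKM in cell bodies, and a log2 change of 0.60 relative to other genes (95% interval -0.03 to 1.22, adjusted p = 0.238). Fxr2 was at 8.59, 6.99, 9.26 and 44.3 FPKM in axonal and 24.8 to 41.3 FPKM in somatodendritic controls, so that 1 axonal library lay above all others (log2 change -0.71, adjusted p = 0.431). Without control replicate 4 the change of Fxr2 was -1.33 and passed (adjusted p = 0.041). With the mitochondrial share as a covariate, the change of Fxr2 was -1.17 (adjusted p = 0.0178). Fxr1 gave 55.7% ± 18.6 of the summed fragile X FPKM in control axons and 34.3% ± 3.97 in control cell bodies, with ranges that overlap.

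Neither Staufen gene passed the test between control compartments. Stau1 was at 35.7, 38.5, 37.9 and 33.7 FPKM in somatodendritic and 17.2, 5.33, 12.7 and 32.8 FPKM in axonal controls. Deposited values did not overlap, but the log2 change of -0.80 (SE 0.44) had an adjusted p of 0.306. It was -1.14 with an adjusted p of 0.0463 when the mitochondrial share was a covariate. Stau2 was at 84.7, 110, 107 and 111 FPKM in somatodendritic and 86.2, 47.7, 50.6 and 168 FPKM in axonal controls, with a log2 change of 0.11 (95% interval -0.67 to 0.89, adjusted p = 0.893). Smn1 was at 21.1 to 30.1 FPKM in somatodendritic and at 50.4, 18.8, 19.1 and 4.09 FPKM in axonal controls (log2 change -0.12, 95% interval -1.36 to 1.12, adjusted p = 0.928). The interval of Smn1 spans more than a 2-fold change in each direction.

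In knockdown cultures the same comparison between compartments gave log2 changes nearer to 0 for Elavl3 and Elavl4, and 0 members passed. Elavl4 was at 189, 172, 161, 112, 241 and 129 FPKM in somatodendritic knockdown replicates 1 to 6, whereas the axonal ones had 27.3, 46.8, 153, 77, 92.7 and 38 FPKM. Of the axonal libraries, 5 of 6 were below every somatodendritic one, and the log2 change was -1.14 (SE 0.35, unadjusted p = 0.00485, adjusted p = 0.111). Elavl3 was at 52.8 to 83.7 FPKM (median 70.9) in cell bodies and 18.5 to 66.6 FPKM (median 29.9) in axons, again with 5 of 6 axonal libraries below every somatodendritic one (log2 change -0.82, SE 0.29, unadjusted p = 0.0112, adjusted p = 0.16). In both genes the exception was axonal knockdown replicate 3. Elavl1 was at 14.4 to 23.9 FPKM in cell bodies and 2.21 to 15.2 FPKM in axons (log2 change -0.95, SE 0.39, unadjusted p = 0.0274, adjusted p = 0.234). Elavl2 had nearly the same mean in both, 67.6 ± 22.5 FPKM in cell bodies and 67.9 ± 33.9 FPKM in axons. Stau2 had a higher mean in axons, 283 ± 180 FPKM against 140 ± 25 FPKM (log2 change 0.99, SE 0.45, unadjusted p = 0.0405, adjusted p = 0.277), but the change was -0.47 with the mitochondrial share as a covariate. The axonal mean of Fmr1 was also the higher one, 19.6 ± 8.69 FPKM against 16.5 ± 6.06 FPKM (log2 change 0.43, SE 0.38, adjusted p = 0.615). At an adjusted p under 0.05 limma called 0 of 10 members, against 1.28% of 14021 genes, and 4 of 10 at an unadjusted p under 0.05 (Elavl1, Elavl3, Elavl4 and Stau2), against 16.6% of all genes. Of the alternatives, only the fit with all 20 libraries together called a member, Elavl4 (log2 change -1.13, adjusted p = 0.0477). Whether the compartment difference of Elavl4 changed with knockdown is answered by the test of the difference between compartments given last.

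**Figure D4:**
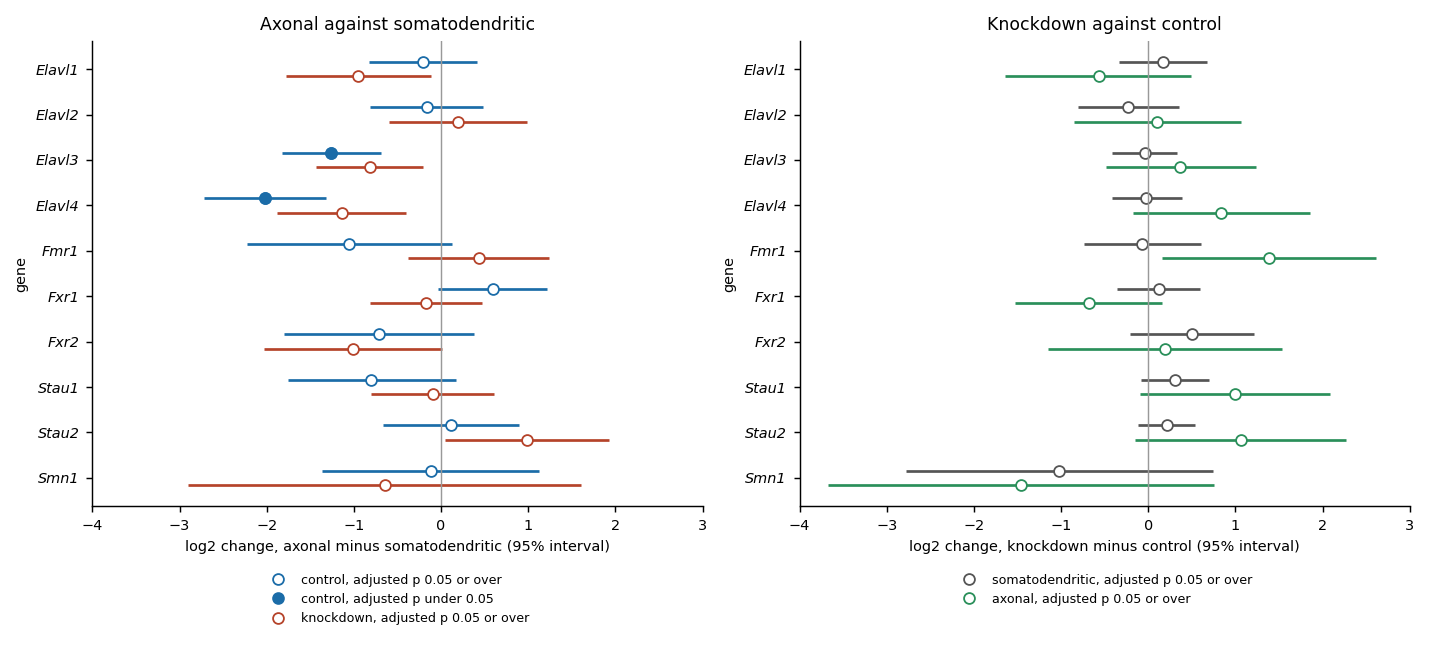
Log2 change with its 95% interval for each gene, on the log2(FPKM + 1) scale after scaling; left, axonal minus somatodendritic in control and knockdown libraries, and right, knockdown minus control in each compartment. Filled points have an adjusted p under 0.05, which holds for Elavl3 and Elavl4 between control compartments and for no knockdown change.

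Depletion of Tdp-43 left the levels of these genes in cell bodies without a change that passed the test. By limma, 0 of 10 members had an adjusted p under 0.05, against 0.974% of 13762 genes, and 0 of 10 had an unadjusted p under 0.05, against 13.8% of all genes. Elavl4 had a log2 change of -0.02 (95% interval -0.42 to 0.39) and Elavl3 of -0.04 (-0.41 to 0.33), while the median change of all genes tested was -0.13. Stau2 had a log2 change of 0.21 (-0.12 to 0.54) and Stau1 of 0.31 (-0.08 to 0.70). The log2 change was 0.17 for Elavl1 (-0.33 to 0.67), -0.23 for Elavl2 (-0.80 to 0.35), 0.12 for Fxr1 (-0.36 to 0.59) and -0.07 for Fmr1 (-0.74 to 0.60). Fxr2 was at 24.8 to 41.3 FPKM in control libraries and at 40, 25.1, 42.2, 56.9, 109 and 65.7 FPKM in knockdown libraries 1 to 6 (log2 change 0.50, SE 0.33, adjusted p = 0.548). Smn1 was at 21.1, 26.9, 29 and 30.1 FPKM in control and at 20.4, 47.6, 24.1, 22.9, 0 and 19.8 FPKM in knockdown libraries, and its log2 change of -1.02 had an interval of -2.78 to 0.74. The knockdown library in which Smn1 is listed at 0, replicate 5, has a relative depth of 0.256, while replicate 6, with a lower depth of 0.143, had 19.8 FPKM, and the precision of the gene was at most 4.73 in any somatodendritic library.

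In axons no member passed the adjusted threshold after knockdown. The axonal controls are the same libraries as in the comparison between compartments, so that the 2 comparisons are not independent. By limma, 0 of 10 members had an adjusted p under 0.05, against 0.401% of 13958 genes. At an unadjusted p under 0.05 there was 1 of 10, Fmr1, against 8.6% of all genes. Fmr1 was at 6.98, 7.02, 6.88 and 0.644 FPKM in axonal controls and at 15.9, 10.7, 16.8, 26.5, 33.6 and 13.8 FPKM in axonal knockdown libraries 1 to 6. Every knockdown library was above every control, which also holds for 2.47% of all genes tested in either direction. The mean was 19.6 against 5.38 FPKM, a ratio of 3.64, and the log2 change was 1.39 (SE 0.58, unadjusted p = 0.0291, adjusted p = 0.505). The precision of these values was 0.00713 to 0.986 in control and 0.637 to 6.9 in knockdown libraries, and without control replicate 4 the change was 0.77 (unadjusted p = 0.144). The knockdown libraries of Fmr1 in axons overlap the range of its somatodendritic levels, 9.08 to 26.5 FPKM in knockdown cell bodies.

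Both Staufen genes had higher axonal means in knockdown libraries. Stau2 was at 86.2, 47.7, 50.6 and 168 FPKM in axonal controls and at 93, 284, 101, 366, 577 and 277 FPKM in axonal knockdown libraries 1 to 6. Of the knockdown libraries, 4 of 6 lay above every control, the ratio of means was 3.21 and the log2 change was 1.06 (SE 0.57, 95% interval -0.15 to 2.27, adjusted p = 0.639). The Stau2 level followed the mitochondrial share of the axonal library closely. Across the 10 axonal libraries the Pearson correlation of log2(FPKM + 1) with that share was 0.94, given as a description since these libraries differ in depth as well, and across the 10 somatodendritic libraries it was 0.17. The correlation of Stau2 with the log of relative depth was -0.78 in axonal and -0.68 in somatodendritic libraries. The 4 knockdown libraries with Stau2 at 277 FPKM or more are those with shares of 38.5% to 47.7%, and the control library with 168 FPKM is that with a share of 33%. Among libraries with shares of 8.88% to 13.1%, Stau2 was at 86.2, 47.7 and 50.6 FPKM in controls and at 93 and 101 FPKM in knockdown. With the mitochondrial share as a covariate, chosen after seeing the data, the log2 change of Stau2 between knockdown and control axons was -0.02 (unadjusted p = 0.943). Without libraries under a relative depth of 0.5 it was 0.23 (unadjusted p = 0.686). Of the other members, Fxr1 and Smn1 (both -0.72), Elavl1 (-0.65) and Elavl2 (0.64) had the strongest correlations with the mitochondrial share in axons.

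**Figure D5:**
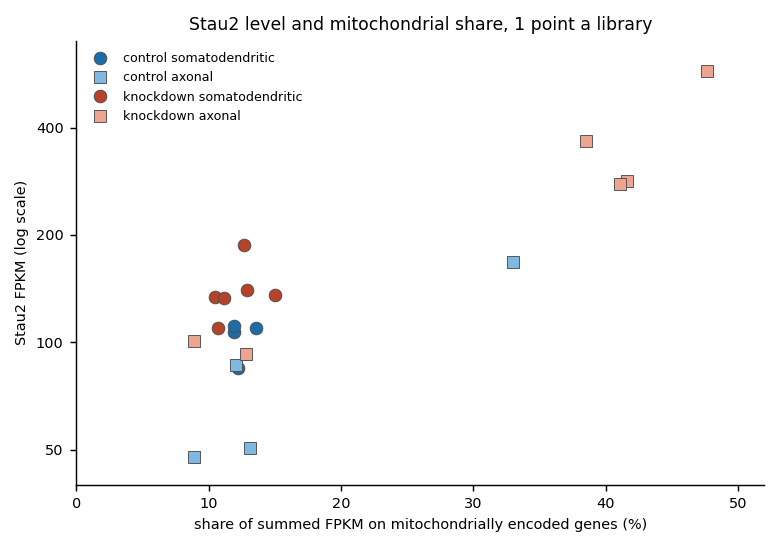
Stau2 FPKM on a log axis against the share of summed FPKM on the 37 mitochondrially encoded genes, 1 point per library, with circles for somatodendritic and squares for axonal libraries. Axonal libraries with shares of 33% to 47.7% have Stau2 at 168 to 577 FPKM, and those with shares of 8.88% to 13.1% have it at 47.7 to 101 FPKM.

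Stau1 was at 17.2, 5.33, 12.7 and 32.8 FPKM in axonal controls and at 92.6, 14.3, 58, 38.3, 32 and 53.7 FPKM in axonal knockdown libraries. The 3 highest values belong to the 3 knockdown libraries with a relative depth above 0.5, replicates 1, 3 and 6. The ratio of means was 2.83 and the log2 change was 0.99 (SE 0.51, adjusted p = 0.628). With the mitochondrial share as a covariate it was 1.02 (unadjusted p = 0.11), and without libraries under a relative depth of 0.5 it was 1.56 (unadjusted p = 0.0121, adjusted p = 0.463). Without control replicate 2, the library with the lowest Stau1 value, it was 0.55 (unadjusted p = 0.297, adjusted p = 0.885). Elavl4 was at 16.2, 14.9, 36.9 and 34 FPKM in control and 27.3, 46.8, 153, 77, 92.7 and 38 FPKM in knockdown axons, so that 5 of 6 knockdown libraries lay above every control. Its log2 change was 0.84 (SE 0.48, adjusted p = 0.675) at a ratio of means of 2.84. Elavl3 had a ratio of 1.97 with a log2 change of 0.37 (adjusted p = 0.833), and Elavl2 a ratio of 1.62 with a change of 0.10 (adjusted p = 0.963).

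Elavl1, Fxr1 and Smn1 had negative log2 changes in knockdown axons, which did not pass. Elavl1 was at 7.95 to 10.7 FPKM in control and 14.2, 7.25, 15.2, 8.71, 2.21 and 10.8 FPKM in knockdown axons (log2 change -0.57, SE 0.50, adjusted p = 0.775). The 3 lowest knockdown values of Elavl1 are those of the 3 shallow libraries, replicates 2, 4 and 5, and across the 10 axonal libraries its Pearson correlation with the log of relative depth was 0.93, given as a description. Fxr1 was at 40.2, 22, 24.7 and 18.3 FPKM in control and 35.6, 19.1, 28.8, 17, 12.9 and 27 FPKM in knockdown axons (log2 change -0.68, SE 0.40, adjusted p = 0.682), and its 3 lowest knockdown values are from the same 3 libraries. Smn1 was at 45.3, 31.5, 35.1, 0, 0 and 8.11 FPKM in knockdown axons, and the 2 libraries in which it is listed at 0, replicates 4 and 5, are 2 of the 3 shallow ones. Its log2 change was -1.46 with an interval of -3.67 to 0.75. Fxr2 ranged from 4.51 to 50 FPKM in knockdown axons (log2 change 0.19, adjusted p = 0.952).

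RNAs that are retained in nuclei were higher in sum in axonal knockdown libraries. The summed level of 5 nuclear RNAs (Malat1, Neat1, Meg3, Miat and Snhg11) was 1160 to 2330 FPKM in axonal knockdown libraries and 445 to 764 FPKM in axonal controls, with no overlap, against 789 to 1170 FPKM in somatodendritic control and 680 to 1380 FPKM in somatodendritic knockdown libraries. None of the 5 passed the adjusted threshold between knockdown and control axons. Between knockdown compartments 1 of 5 passed, Malat1, which was higher in axons (log2 change 1.30, SE 0.23, adjusted p = 0.0177) and passed in 9 of 17 alternatives. Malat1 had the largest share of the sum, at 312 to 489 FPKM in control and 1040 to 1800 FPKM in knockdown axons. The part of this RNA in the axonal values of the members was not tested.

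The difference between the knockdown effects in axons and in cell bodies was tested directly on axonal minus somatodendritic values paired by replicate number, which is an assumption that the labels do not state. By limma, 0 of 10 members had an adjusted p under 0.05, against 0.0237% of 12646 genes, and 1 of 10 had an unadjusted p under 0.05, against 4.89% of all genes. That member was Fmr1, whose knockdown effect was 1.46 log2 units higher in axons (SE 0.64, unadjusted p = 0.0388, adjusted p = 0.988). For Elavl4 the difference was 0.86 (95% interval -0.21 to 1.92), for Stau2 0.85 (-0.43 to 2.13) and for Stau1 0.68 (-0.48 to 1.83). For Elavl1 it was -0.74 (-1.80 to 0.31) and for Fxr1 -0.80 (-1.88 to 0.28). Without the pairing the difference was 0.84 for Elavl4 (SE 0.52, adjusted p = 0.935) and 1.46 for Fmr1 (SE 0.67, adjusted p = 0.878), and again 0 of 10 members passed. The intervals of the paired test allow a difference of more than 2-fold for Elavl4, Stau2, Stau1, Elavl1 and Fxr1, and the smaller compartment difference of Elavl4 in knockdown cultures is therefore not shown to differ from that in control cultures.

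Partners and targets of the 10 proteins were read from 5 lists with 64 genes in all, of which 60 to 63 were tested. Between control compartments, 5 of 63 passed, 1 higher and 4 lower, a share near the 6.9% of all genes tested, and the count is no result about the lists as a whole. The lower ones were mRNAs that Hu or fragile X proteins are known to bind and a partner of the fragile X protein. Gap43, which encodes a growth cone protein and is a target of Elavl4, was at 652 ± 52 FPKM in cell bodies and 181 ± 17.4 FPKM in axons (SD, n = 4 each), a log2 change of -1.32 (SE 0.16, adjusted p = 0.00204). Mapt, which encodes Tau, was at 227 ± 26.9 and 66.4 ± 18.7 FPKM (log2 change -1.27, SE 0.24, adjusted p = 0.012). Map1b, a microtubule-associated protein gene and target of the fragile X protein, was at 274 ± 13.8 and 111 ± 12.2 FPKM (log2 change -0.78, SE 0.17, adjusted p = 0.0214). Cyfip2, a fragile X protein partner, was at 68.4 ± 4.1 and 27.3 ± 3.4 FPKM (log2 change -0.79, SE 0.21, adjusted p = 0.0449). The gene that rose was Actb, which encodes beta-actin, with a log2 change of 1.23 (adjusted p = 0.022); it is named after its values were seen. In the same axonal libraries the fibroblast markers and the astrocyte and progenitor markers had higher median sums, though single markers of both lists went both ways. The 4 interneuron markers were lower there, in the direction of Gap43, Mapt, Map1b and Cyfip2. The part of these cell types in the levels of the 5 genes was not tested. Gap43 passed in all 15 alternatives, Mapt in 11, Map1b in 10 and Cyfip2 and Actb in 9 each. Without control replicate 1, 2 or 3, Gap43 was the only one of these 5 genes that passed. With the replicate block Map1b (adjusted p = 0.0782) and Cyfip2 (adjusted p = 0.114) did not pass, and with FPKM as deposited Actb did not (log2 change 0.70, adjusted p = 0.101). In the list of target mRNAs 4 of 9 tested genes passed, 3 of them lower, with a median log2 change of -0.78 against -0.06 for all genes. In the lists of other localization proteins (17 tested), other stability and decay proteins (20 tested) and partners of the SMN complex (8 tested), 0 passed, and 5, 3 and 1 genes had an unadjusted p under 0.05, against 22.9% of all genes. The genes with the smallest p in these lists, none of which passed, were Mbnl2 (log2 change 1.35, adjusted p = 0.0629), Zfp36l1 (1.07, adjusted p = 0.107) and Gemin2 (-1.31, adjusted p = 0.145).

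In knockdown cultures, 2 of 61 listed genes passed between compartments, against 1.28% of all genes, and 1 of them was tested only because of its axonal level. Igf2bp1, which encodes the zipcode-binding protein that carries beta-actin mRNA, was at 6.87 ± 7.57 FPKM in axons and 0.0791 ± 0.194 FPKM in cell bodies (n = 6 each, log2 change 2.49, SE 0.54, adjusted p = 0.0366). It reached the mean of 1 FPKM that the filter asks for only through the axonal libraries, so that its call is not independent of the filter. Without the filter Igf2bp1 did not pass (adjusted p = 0.0649), and neither did Dlgap3, the other listed gene that passed (adjusted p = 0.07). Dlgap3, a postsynaptic scaffold gene whose mRNA lies in dendrites and binds the fragile X protein, was at 9.63 ± 6.25 and 35.2 ± 8.18 FPKM (log2 change -1.68, SE 0.38, adjusted p = 0.0454). The fibroblast markers summed to 11.4 to 81.1 FPKM in axonal and 0 to 13.9 FPKM in somatodendritic knockdown libraries, and 1 of 3 tested passed, higher in axons. Of 8 astrocyte and progenitor markers 1 passed, Vim, also higher in axons (363 against 105 FPKM, log2 change 1.88, adjusted p = 0.032). Nes (50.9 against 6.25 FPKM), Slc1a3 (151 against 112) and Sox2 (16.8 against 16.6) had higher means there too. Gfap (10.1 against 22.4 FPKM), Fabp7 (62.2 against 93.7), Aldh1l1 (7.77 against 15.9) and Aqp4 (2.92 against 5.19) had lower ones. The part of these cells in the Igf2bp1 level was not tested. Both calls depended on the setting. Igf2bp1 passed in 6 of 16 alternatives and Dlgap3 in 7 of 17. Neither passed with the replicate block (adjusted p = 0.0927 and 0.114) or with the mitochondrial share as a covariate (adjusted p = 0.116 and 0.394). Without 1 of knockdown replicates 1 to 6, Igf2bp1 passed only without replicate 4, and Dlgap3 in none of these fits. After knockdown, 1 of 61 listed genes passed in cell bodies, against 0.974% of all genes. This was again Dlgap3, which rose from 12 ± 1.45 FPKM in control to 35.2 ± 8.18 FPKM in knockdown cell bodies (log2 change 1.25, SE 0.21, adjusted p = 0.0156). It passed in 16 of 20 alternatives, and not with the replicate block (1.22, adjusted p = 0.122), with all 20 libraries in 1 fit (1.23, adjusted p = 0.383) or without control replicate 3 or 4 (adjusted p = 0.0669 and 0.059). Of the cell type markers, 1 of 4 interneuron markers passed in the same comparison. This was Gad2, which fell from 17.1 to 7.6 FPKM (log2 change -1.26, adjusted p = 0.0282). Gad1 also had a lower mean in knockdown (33 against 47.7 FPKM). Pax2 (27.7 against 16.8 FPKM) and Slc32a1 (41.1 against 36.1 FPKM) had higher means and did not pass. The part of these cells in the Dlgap3 level was not tested. Hnrnpa2b1, which encodes a transport granule protein, did not pass, at 42.8 ± 11.8 FPKM in knockdown against 75.4 ± 7.76 FPKM in control cell bodies (log2 change -1.05, SE 0.23, adjusted p = 0.0513). By limma, 0 of 62 listed genes passed between knockdown and control axons and 0 of 60 in the difference of the effects, against 0.401% and 0.0237% of all genes. At an unadjusted p under 0.05 there were 1 of 62 and 3 of 60, against 8.6% and 4.89% of all genes. After knockdown in cell bodies, 6 of 61 were higher and 6 lower at that threshold, against 13.8% of all genes in either direction. Between knockdown compartments 11 of 61 were higher and 6 lower, against 16.6%. The lists were not tested as sets. Actb had the smallest p in knockdown axons (log2 change -0.95, SE 0.36, adjusted p = 0.449).

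The genes whose levels most resembled those of 2 members were searched over all 20 libraries among 8839 genes of mean level 5 FPKM or more, by Pearson correlation of log2(FPKM + 1) scaled over these libraries. The libraries share compartment, depth and condition, so that the correlation is a description. Elavl4, the Elavl gene with the highest mean, was most like Fam168a (r = 0.923), Atp6v0e2 (0.917) and Cdh8 (0.903). All 3 had lower means in control axons than in control cell bodies, Cdh8 with 6.08 against 29.1 FPKM. Stau2, the other member with the highest mean, was most like Cox6a1 (r = 0.941), a nuclear gene for a subunit of cytochrome c oxidase, and the mitochondrially encoded genes mt-Nd5 (0.925) and mt-Nd3 (0.906). Their means in knockdown axons were 906, 5370 and 1060 FPKM, against 232, 1670 and 397 FPKM in control axons.

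The positions of the genes are given in GRCm38 as in the files, counted from 1. Elavl4 lies on chr4:110203722-110351909 and Elavl2 on chr4:91250763-91400785, Elavl3 on chr9:22015005-22052023 and Stau2 on chr1:16228674-16520112. Stau1 lies on chr2:166947549-166996299, Fmr1 on chrX:68678541-68717963, Fxr2 on chr11:69632990-69653297, Smn1 on chr13:100124852-100137690, Fxr1 on chr3:34020079-34069342 and Elavl1 on chr8:4284782-4325100. In GENCODE M21, exons of Elavl1 and Fxr1 share positions with a gene on the opposite strand (Ccl25 and Dnajc19), and exons of Elavl3 and Fmr1 with a gene on the same strand (Gm49318 and Gm27838). Reads from shared positions cannot be told apart in the same-strand pairs, nor in the opposite-strand pairs where the library does not keep the strand.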

How the data were processed

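Genes were chosen by symbol, and the members, the lists of partners, targets and cell type markers and the tests were chosen with earlier results of these data known. Per the labels and submitters' processing notes, reads were checked with FastQC 0.10.1 and the authors computed FPKM, with a 95% interval per gene and library, with Cufflinks 2.2.1 on GRCm38. The aligner's settings and the authors' test are not given in the sources used here. Precision was (FPKM / SD) squared, with the SD read as the distance to the upper bound divided by 2. Relative depth, an estimate, was the median of precision per FPKM over 680 genes with a precision above 3 in every library. The highest correlation between 2 libraries was 0.9419, so that none was counted as a repeat.

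For each comparison, a median-of-ratios factor was computed from genes at 1 FPKM or more in all its libraries, and values were divided by it. Genes whose mean reached 1 FPKM were fitted on log2(FPKM + 1) with limma 3.58.1 in R 4.3.3 (eBayes with trend), with p-values adjusted after Benjamini and Hochberg over every fitted gene and a two-sided threshold of 0.05. Fold changes on this scale understate changes of low genes. The difference between knockdown effects used axonal minus somatodendritic values paired by replicate number, which is an assumption, since the labels name no culture. The fits were also run on simulated data whose spread between libraries was set in advance. That run does not show how they behave on these libraries. Named in the text were the 10 members, Tardbp, up to 3 passing genes of smallest p per list (or the 1 of smallest p where none passed) and the 3 genes most like the Elavl gene and the other member of highest mean. Of the marker symbols, Rian, Kcnq1ot1 and Slc18a3 did not match a single row. Alternatives were pseudocounts of 0.1 and 5, FPKM without scaling, quantile normalization, no filter and a filter of 5 FPKM, array weights, all 20 libraries in 1 fit, a replicate block, leaving out libraries under a relative depth of 0.5 and leaving out each replicate. The mitochondrial share as a covariate, and the alternatives for listed genes and nuclear RNAs that passed, were added after seeing the data. Python 3.11.15, pandas 2.3.3, numpy 2.4.6 and matplotlib 3.10.9 were used for tables and figures. Transcripts and gene positions came from GENCODE M21.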

Additional observations from a re-analysis of the deposited data

Results flagged for a closer look

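In 4 of 40 groups of libraries (10 genes in 4 groups) 1 library lay apart from the others by Dixon's test at the 95% level, where chance alone flags about 1 group in 20. Elavl2 was at 132 FPKM in axonal knockdown replicate 2, against 38 to 70.4 FPKM in the other 5 axonal knockdown libraries. Fmr1 was at 0.644 FPKM in axonal control replicate 4, against 6.88 to 7.02 FPKM in the other 3 axonal controls. Fxr2 was at 44.3 FPKM in the same library, axonal control replicate 4, against 6.99 to 9.26 FPKM in the others. Stau2 was at 84.7 FPKM in somatodendritic control replicate 1, against 107 to 111 FPKM in the other somatodendritic controls.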

How the results depend on the processing

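Elavl4 passed between control compartments in 14 of 15 alternatives and Elavl3 in 11 of 15, 1 of which, leaving out libraries under a relative depth of 0.5, removes no control library. The exceptions for Elavl3 were the replicate block (-1.26, adjusted p = 0.0602) and leaving out control replicates 1, 2 or 3, and for Elavl4 leaving out control replicate 1. Leaving out each replicate gave -1.5 to -1.03 for Elavl3 and -2.23 to -1.83 for Elavl4. Members that passed elsewhere were Elavl4 between knockdown compartments with all 20 libraries in 1 fit (-1.13), and between control compartments Fxr2 (-1.17) and Stau1 (-1.14) with the mitochondrial share as a covariate, and Fxr2 without control replicate 4.

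The direction changed only where a member did not pass, and the cause was not tested. With FPKM as deposited, log2 changes after knockdown in cell bodies were 0.17 for Elavl3, 0.19 for Elavl4 and 0.13 for Fmr1, that of Stau2 between control compartments was -0.41 and that of Elavl2 between knockdown compartments was -0.05. With quantile normalization, Elavl4 was at 0.04 after knockdown in cell bodies and Stau2 at -0.02 between control compartments. With array weights, Elavl2 was at -0.16 after knockdown in axons, Stau2 at -0.03 and Smn1 at 0.08 between control compartments, Fxr1 at 0.02, Stau1 at 0.07 and Smn1 at 0.00 between knockdown compartments, and Fxr2 at 0.32 in the difference of the effects. Without libraries under a relative depth of 0.5, Elavl3 was at 0.05 after knockdown in cell bodies, Elavl2 at -0.40 in axons, and Elavl2, Fxr1 and Stau1 at -0.17, 0.22 and 0.40 between knockdown compartments. In the difference of the effects Elavl2, Fxr2, Stau2 and Smn1 were then at -0.01, 0.16, -0.62 and 0.90. With the mitochondrial share as a covariate, chosen after seeing the data, Elavl2 and Stau2 were at -0.35 and -0.02 after knockdown in axons, Stau2 and Smn1 at -0.19 and 0.35 between control compartments, and Elavl2, Fxr1, Stau1, Stau2 and Smn1 at -0.60, 0.06, 0.36, -0.47 and 1.22 between knockdown compartments. Leaving out each replicate gave, after knockdown in cell bodies, -0.1 to 0.06 for Elavl3, -0.11 to 0.1 for Elavl4 and -0.23 to 0.09 for Fmr1. In knockdown axons it gave -0.15 to 0.29 for Elavl2 and -0.09 to 0.74 for Fxr2. Between control compartments it gave -0.35 to 0.21 for Elavl2, -1.33 to -0.45 for Fxr2, -0.26 to 0.4 for Stau2 and -0.73 to 0.52 for Smn1. Between knockdown compartments it gave -0.01 to 0.31 for Elavl2, -0.38 to 0.06 for Fxr1, -0.27 to 0.05 for Stau1 and -1 to 0.09 for Smn1. In the difference of the effects it gave -0.04 to 0.52 for Elavl2, -0.75 to 0.27 for Fxr2 and -1.13 to 0.27 for Smn1.

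Counts of all genes with an adjusted p under 0.05 also moved. After knockdown in cell bodies (134) there were 233 with FPKM as deposited (150 higher and 83 lower, against 30 and 104), 212 with a pseudocount of 5, 432 with array weights, 61 with all 20 libraries in 1 fit and 58 to 198 without 1 replicate, lowest without control replicate 3. In axons (56) there were 30 with a pseudocount of 0.1, 87 with array weights, 236 with all 20 libraries and 37 to 70 without 1 replicate. Between control compartments (949) there were 2055 with FPKM as deposited (344 higher and 1711 lower, against 541 and 408), 295 with all 20 libraries, 1578 with the covariate and 118 to 997 without 1 replicate, lowest without control replicates 1 (118) and 2 (121). Between knockdown compartments (179) there were 74 with a pseudocount of 0.1, 52 without a filter, 402 with array weights, 76 without the shallow libraries, 753 with all 20 libraries, 2 with the covariate (0 higher and 2 lower, against 120 and 59) and 5 to 250 without 1 replicate, lowest without knockdown replicate 1. With FPKM as deposited the split was 14 higher and 43 lower in axons (against 2 and 54) and 73 and 89 between knockdown compartments, and with quantile normalization it was 134 and 117 between knockdown and 505 and 561 between control compartments. In the difference of the effects (3) there were 7 without a filter, 0 without the shallow libraries and 10 with no replicate block.

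Deviations of same-numbered libraries had correlations of -0.063 to 0.086, which do not show that the numbers pair the samples and do not exclude it. The test of the difference of the effects pairs by number as an assumption, and its 10 member values kept their direction and their side of the threshold with no replicate block. With the replicate block the counts were 18, 35, 430 and 13 in the order given, and Elavl3 was at 0.03 after knockdown in cell bodies. The lowest median precision in axons was that of Fmr1, Fxr2 and Smn1 (0.569 to 3.15), and the part of depth in it was not tested.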
